A study of Mus musculus with 16 samples.

Results

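Med26 occupancy in neural progenitor cells was compared between a control siRNA and an siRNA against Cbx3, and its regions were sorted into those lost, kept and gained after the knockdown. These data are 4 of the 16 samples of the series: 1 Med26 chromatin immunoprecipitation (ChIP-seq) library and 1 input library in each siRNA arm. The inputs were not used here on their own. The members are all listed windows of 50 bp of the 2 ChIP libraries, with windows up to 200 bp apart merged into regions. This gave 5990 regions under control siRNA and 1745 under Cbx3 siRNA, out of 605681 regions in the 9 ChIP libraries of the series. A control region that shared at least 1 bp with a region of the Cbx3 siRNA list was called kept, and otherwise lost. A region of the Cbx3 siRNA list that touched no base of a control region was called gained.

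Both arms were neural progenitor cells derived from V6.5 mouse embryonic stem cells, made through embryoid bodies over 4 days and then grown as a monolayer in ITSF medium. The control arm received siRNA targeting luciferase and the other arm siRNA targeting Cbx3, each for 72 hours before harvest. Chromatin was fixed with 1% formaldehyde and precipitated with the Med26 antibody sc-48776. With 1 library per arm no difference between the arms has a replicate check, so no p-value is given, and intervals (95%, Wilson) cover counting error only. The level of Cbx3 after the knockdown and the occupancy of neural progenitor marker genes were not analysed here.

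Mediator is the large coactivator complex that carries signals from transcription factors bound at enhancers and promoters to RNA polymerase II (Pol II). Med26 is a subunit of the form of Mediator that binds Pol II, and it is known for recruiting elongation factor complexes that release paused Pol II into the gene body. Cdk8 is the kinase of a separate module that docks on Mediator and is thought to compete with Pol II binding, so Med26 and Cdk8 are commonly read as marks of different forms of the complex. Cbx3, also called HP1 gamma, is a chromodomain protein that binds methylated histone H3 in heterochromatin and is also found within transcribed genes.

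A region's signal is that of its highest window, in the authors' units. The lowest listed value was 6.01 in both Med26 libraries, and a window below that minimum is missing from a list even where it holds signal. A region that is not listed therefore has no value, and no fold change is given for it. Multiples of this lowest value are used below as a scale of how far a region stood above the minimum. Total read numbers cannot be read from such lists, so the depth is unknown, and whether the arms are comparable in depth was not tested.

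Most Med26 regions of the control were not listed after the knockdown. Of the 44 control regions at 5 times the lowest value or more, 37 were listed again (84.1%, interval 70.6 to 92.1%), each at a lower signal. The 7 that were not include the 3 highest of all, at 144.7, 136.7 and 124.6, which lay in a stretch of very high Cbx3 signal. Of the 5990 control regions, 5474 were lost, so that 91.4% of all regions tested carry that call. The same call covered 88.6% of control regions for Cdk8 and 32.1% for Pol II. Of the 1745 regions after Cbx3 siRNA, 1229 were gained, which is 70.4%. The share of control regions kept was 8.61% (interval 7.93 to 9.35%). It was 14.9% when a region within 1 kb counted as kept, and 22.9% when the 1745 highest control regions were set against the 1745 regions of the other arm. With both lists limited to the median control signal or more, 23.7% of the remaining Cbx3 siRNA regions were gained.

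**Figure D1:**
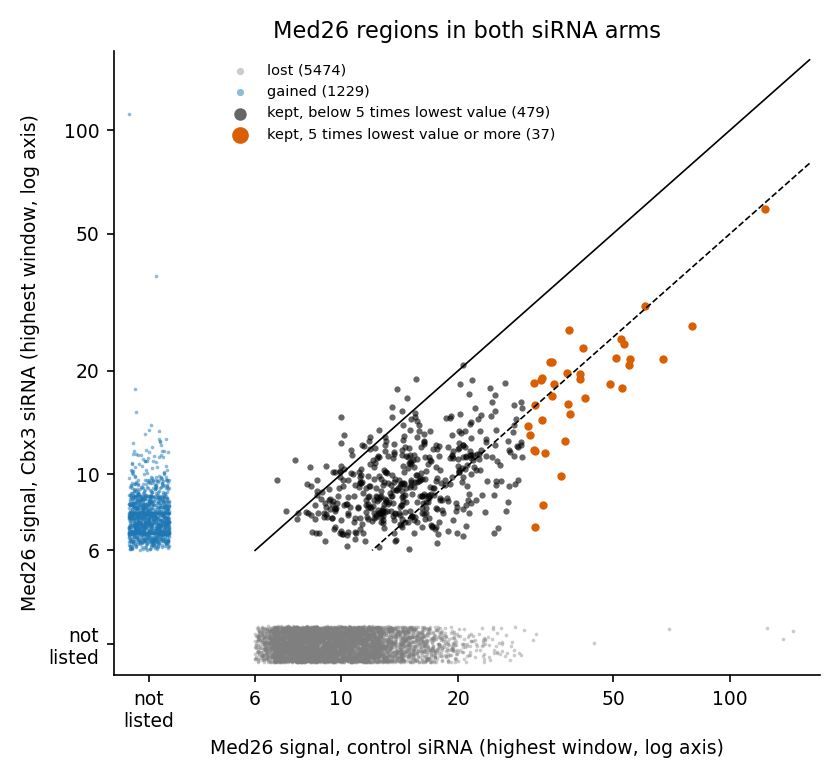
Highest-window Med26 signal of each region under control siRNA (horizontal, log axis) and Cbx3 siRNA (vertical, log axis); the solid line marks equal signal, the dashed line a 2-fold lower signal after Cbx3 siRNA, and regions listed in 1 arm only are spread along the axis marked as not listed. All 37 orange points lie below the line of equal signal, and lost and gained regions crowd near the lowest listed value.

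The 3 classes differed in width and signal. Lost regions had a median signal of 9.39 (quartiles 7.70 and 11.7) and a median span of 100 bp, and 38.3% of them were a single window. Kept regions were wider and higher in the control, with a median signal of 15.1 (quartiles 12.1 and 20.1), a median span of 200 bp and 6.01% single windows. Gained regions were the narrowest, with a median signal of 7.47 (quartiles 6.78 and 8.14), and 76.6% of them were a single window. Most lost and gained regions thus lay close to the minimum: 22.9% of lost regions (interval 21.8 to 24.1%) and 1.22% of gained regions (interval 0.741 to 2.004%) reached 2 times the lowest value, against 75.8% of kept regions. Lost and kept values here are of the control library, and gained values of the Cbx3 siRNA library. In the Cbx3 siRNA library, the regions that overlapped a control region had a median signal of 9.47 and a median span of 100 bp. Of these, 35.3% were a single window and 21.3% reached 2 times the lowest value.

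The kept share climbed with both the height and the width of the control region. Single windows were kept in 1.46% of cases (31 of 2129), regions of 2 to 3 windows in 6.53%, of 4 to 6 windows in 21.3% and of 7 or more in 33.3%. Height and width go together, so width was also read within bands of signal. Between 2 and 3 times the lowest value, 1 of 100 single windows was kept, as were 12.8% of 641 regions of 2 to 3 windows, 22.6% of 416 regions of 4 to 6 windows and 32.3% of 155 wider ones. Between 1.5 and 2 times, the corresponding shares were 4.61, 5.37, 7.30 and 4.48%, with intervals that overlap. A wider region was therefore listed again more often in the higher of these bands, and no such order was seen in the lower one. A wide region also offers more bases in which a window of the other list can fall.

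Read by height, the Med26 regions ran from almost none kept to almost all kept. These values leave out 5 control regions, all lost and all above 5 times the lowest value, that lay within 1 kb of very high Cbx3 signal and are described further on. That exclusion was chosen after the values were seen. Of 2467 regions under 1.5 times the lowest value, 22 were kept (0.892%). From 1.5 to 2 times, 103 of 1877 were kept (5.49%), from 2 to 3 times 227 of 1312 (17.3%) and from 3 to 5 times 127 of 290 (43.8%). At 5 times or more, that is at a signal of 30.03 or more, 37 of 39 were kept (94.9%, interval 83.1 to 98.6%), against 37 of 44 (84.1%) with the 5 regions left in. The limit of 5 times was chosen after the values were seen, and the regions just inside it had signals of 30.2 and 30.5 (both kept), those just outside 29.4 (lost) and 29.2 (kept). With a limit of 3 times, 49.8% of 329 regions were kept.

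**Figure D2:**
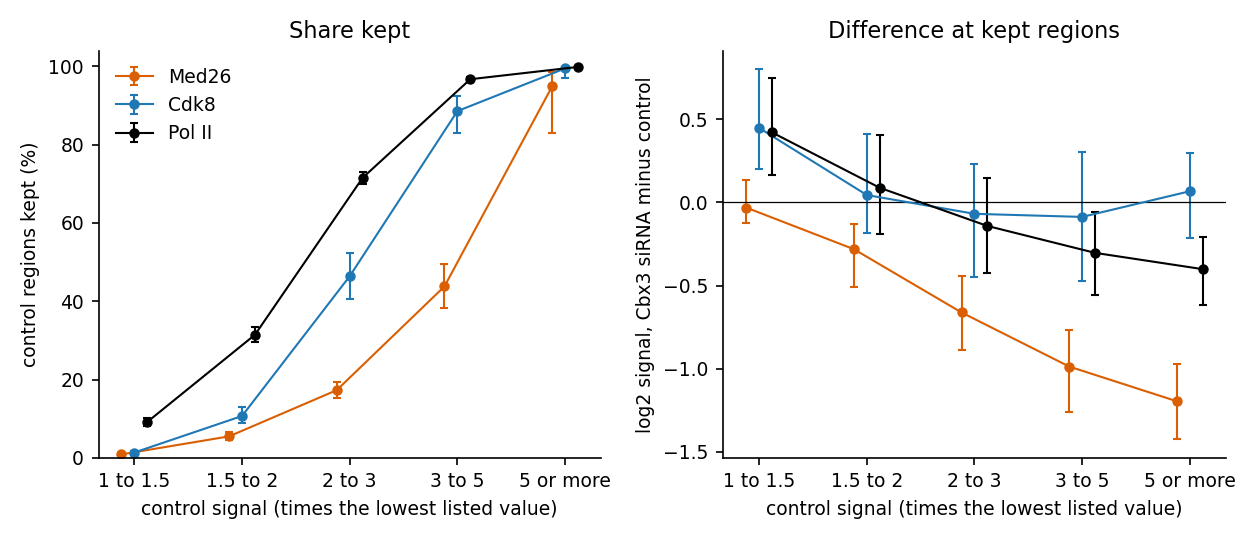
Left, share of control regions kept, with 95% Wilson intervals; right, median log2 signal difference at kept regions, Cbx3 siRNA minus control, with quartiles as bars, both against control signal in multiples of the lowest listed value of each pair. Med26 (orange) was kept less often than Cdk8 and Pol II from 2 to 5 times the lowest value, and its median difference is -0.03 in the band nearest the minimum and -1.20 at 5 times or more. A kept region cannot fall below the minimum, which limits the differences possible in the bands nearest to it.

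At these 39 strong regions, where the minimum of the list limits the comparison least, every region listed in both arms had less Med26 signal after the knockdown. The 37 kept regions had a median control signal of 38.1 and a median of 18.4 after Cbx3 siRNA. Their log2 differences, Cbx3 siRNA minus control, had a median of -1.20 (quartiles -1.42 and -0.97) and ran from -2.17 to -0.55, with an SD of 0.37 over regions. The size depended on the summary of a region: the median was -0.78 for the mean and -1.87 for the sum over its listed windows. The signal left after the knockdown was 43.7% of control at the median, from 22.3 to 68.2%. At least a 2-fold lower signal was seen at 26 of the 37, against 23.8% of all 516 kept regions. A kept region under 2 times the lowest value cannot be 2-fold lower and still be listed. None of the 22 kept regions under 1.5 times, or of the 103 from 1.5 to 2 times, could thus count. The list minimum therefore sets part of this contrast. A 2-fold lower signal was seen at 2.37% of kept Cdk8 regions and 3.55% of kept Pol II regions, under the same limit. No kept Med26 region (0%) was 2-fold higher.

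The highest Med26 region outside stretches of very high Cbx3 signal lay on chromosome 9 from 44689201 to 44689700 (mm9, as are all coordinates here). Its signal was 122.7 under control siRNA and 58.96 under Cbx3 siRNA, and it narrowed from 10 listed windows to 5. It was among the 4 strong regions that held Cdk8 in the control, whose signal there was 11.2 in the control and 30.5 after Cbx3 siRNA. Pol II at the same place was 40.7 and 33.3. At this site Med26 was therefore lower and Pol II a little lower, while Cdk8 was higher, each in 1 library per arm.

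The next strong regions, in order of control signal, had from 32.1 to 51.0% of it left. On chromosome 6 from 134517201 to 134517550 Med26 was 79.9 in the control and 26.9 after the knockdown. On chromosome 1 from 192886551 to 192886900 it was 67.2 and 21.6. On chromosome 7 from 104548501 to 104548900 it was 60.2 and 30.7. These last 2 were also among the strong regions with the lowest Pol II after the knockdown relative to control, at 24.1 and 11.6 on chromosome 1 and 28.6 and 12.4 on chromosome 7.

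The next regions in that order showed a lower Med26 signal beside Pol II that hardly differed between the arms. On chromosome 3 from 95733151 to 95733700 Med26 was 55.2 and 21.6, while Pol II was 29.6 and 30.4. On chromosome 8 from 113370401 to 113370750 Med26 was 55.03 and 20.7, while Pol II was 41.1 and 36.7. On chromosome 2 from 130004601 to 130005150 Med26 was 53.2 and 23.8, while Pol II was 24.8 and 23.6. The lower Med26 signal at these 3 places was thus not matched by a Pol II difference of similar size.

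The others among the highest 10 covered a wide range of Pol II levels. On chromosome 4 from 131825901 to 131826250 Med26 was 52.6 and 17.8 at one of the highest Pol II signals, 152.9 in the control and 115.7 after the knockdown. On chromosome 11 from 70051451 to 70051800 Med26 was 52.5 and 24.8, with Pol II at 38.5 and 26.6. On the X chromosome from 98417851 to 98418150 Med26 was 51.01 and 21.7, with Pol II at 12.4 in the control and not listed after the knockdown. A Med26 signal of about the same height thus stood over Pol II signals that differed by more than 10 times.

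Extremes of Pol II or of Med26 among the strong regions are given at 4 regions chosen after their values were seen. Med26 had the most signal left on chromosome 8 from 23970001 to 23970300, at 38.5 and 26.2 (68.2% left), with Pol II at 94.5 and 77.2. Pol II was higher after the knockdown by the widest margin on chromosome 2 from 28438301 to 28438650, at 9.15 and 18.7, where Med26 was 41.1 and 19.5. Besides the X chromosome region, Pol II was no longer listed on chromosome 15 from 68089801 to 68090050, where Med26 was 49.2 and 18.3, and on chromosome 18 from 31794251 to 31794450, where Med26 was 33.4 and 11.5. Med26 left was 37.2 and 34.6% there, 42.5% at the X chromosome region and 47.5% on chromosome 2, against a median of 43.7%.

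The 2 strong regions that were not listed again were close to the limit. One, on chromosome 17 from 74715751 to 74716150, had a control signal of 31.7 over 8 windows and Pol II at 42.7 and 43.01. The other, on chromosome 5 from 130175701 to 130176200, had a control signal of 31.2 over 10 windows and Pol II at 53.8 and 35.3. Pol II was thus still listed at both places after the knockdown.

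**Figure D3:**
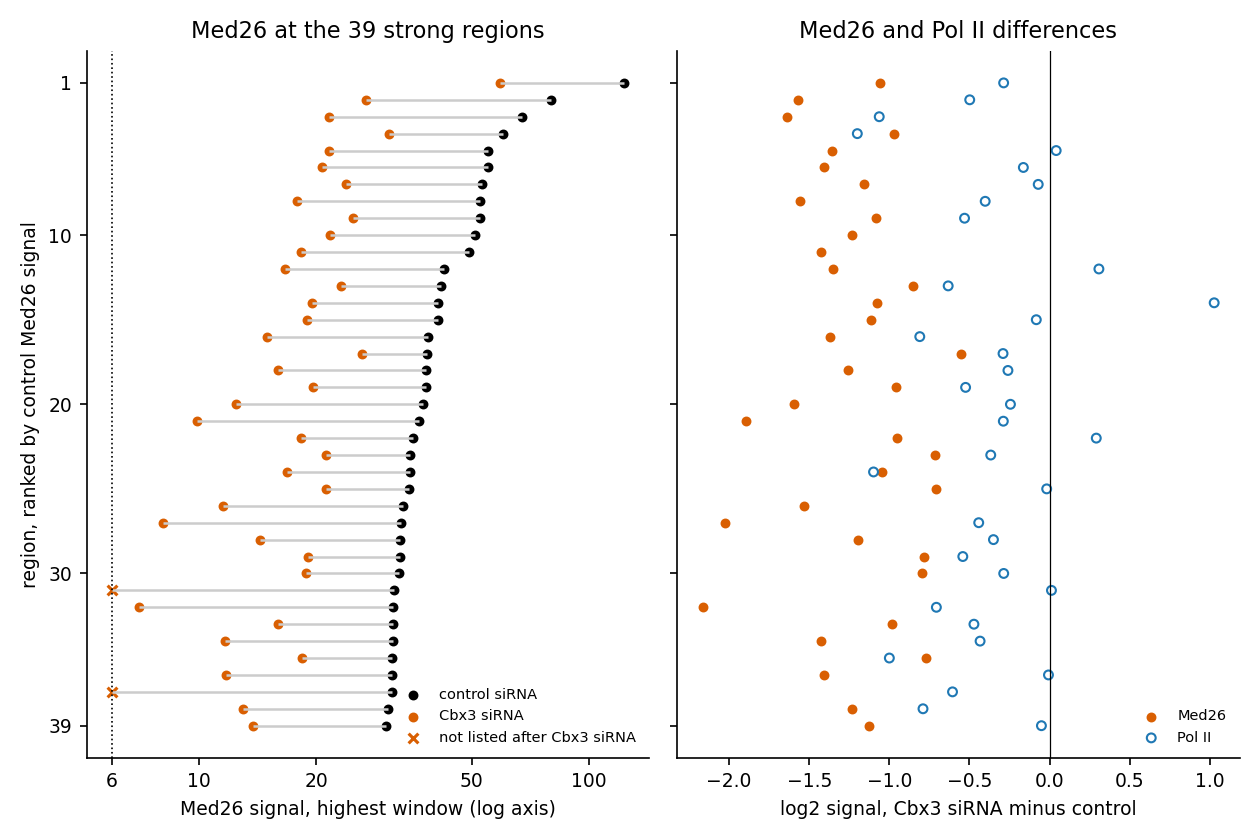
The 39 control Med26 regions at 5 times the lowest listed value or more, in order of control signal. Left, Med26 signal under control siRNA (black) and Cbx3 siRNA (orange), with a dotted line at the lowest listed value and crosses for the 2 regions not listed after Cbx3 siRNA; right, log2 differences of Med26 (filled) and Pol II (open), where the Med26 points lie between -2.17 and -0.55 and the Pol II points of kept regions have a median of -0.36.

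Pol II was lower at most of the strong regions too, by less than Med26. All 39 held Pol II in the control, and 36 held it after the knockdown. At the 34 kept regions with Pol II in both arms, the median Pol II difference was -0.36 on the log2 scale (quartiles -0.54 and -0.10), and the Med26 difference was the more negative at 31 of them. These regions were picked by their control Med26 signal, which favours a lower Med26 value after the knockdown, and not by Pol II. The part of that picking in the gap between Med26 and Pol II was not tested. The Pol II difference was about that of all kept Med26 regions, -0.34, and a little below the -0.29 of all kept Pol II regions. That -0.29 is not taken at like Pol II signal. Outside stretches of very high Cbx3 signal, the median of kept Pol II regions was -0.30 from 3 to 5 times the lowest value and -0.40 at 5 times or more. Control Pol II at the strong Med26 regions had a median signal of 35.5. The strong Med26 regions were not confined to the strongest Pol II regions: their Pol II stood at a median percentile of 84.6 among all control Pol II regions, from 19.2 to 99.99, and that of the other Med26 regions with Pol II at 78.9. Across the 4481 control regions with Pol II, Med26 and Pol II signals had a Spearman correlation of 0.19, a description over regions that differ in width. Across 477 kept regions the Med26 and Pol II differences had a Spearman correlation of 0.06.

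Picking regions by a high control signal favours a lower value in the other library, so regions were also picked by their signal after the knockdown. Of 122 Cbx3 siRNA regions at 2 times the lowest value or more, leaving out the 3 gained windows within 1 kb of very high Cbx3 signal, 110 overlapped a control region, and 95 of these 110 were lower after the knockdown, with a median log2 difference of -0.62 (quartiles -0.98 and -0.19). Picked in the same way, Cdk8 regions had a median of 0.12, with 40.5% lower, and Pol II regions a median of -0.29, with 77.5% lower. The median Med26 difference by highest window was thus negative whichever arm chose the regions. The limits differ, at 2 times for the Cbx3 siRNA arm and 5 times for the control arm, so the sizes of -0.62 and -1.20 cannot be set against each other.

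Over all 516 kept control regions Med26 was lower in 483 and higher in 33. The median log2 difference was -0.68 (quartiles -0.99 and -0.35), with median signals of 15.1 and 9.47. The control signal of the 33 higher regions was at most 20.6. Kept regions also narrowed: they held 2422 listed windows in the control and the overlapping regions held 1148 after the knockdown, and 403 became narrower, 61 kept their number of windows and 52 had more. The highest windows in the control and after Cbx3 siRNA lay within 50 bp of each other in 77.7% of kept regions and in 35 of the 37 strong ones. A kept region shares bases with the other list by definition, which partly sets this closeness. Median spans were 200 bp in the control and 100 bp after Cbx3 siRNA.

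The 5 kept regions with the largest fall in signal stood at 24.7 or more in the control and close to the minimum after the knockdown. On chromosome 17 from 35301551 to 35301800 Med26 was 31.5 and 7.03, the lowest share left of any kept region, with Pol II at 63.6 and 39.0. On chromosome 9 from 105397551 to 105397750 it was 33.01 and 8.10. On chromosome 17 from 28314201 to 28314550 it was 36.7 and 9.87. On chromosome 8 from 23521901 to 23522100 it was 24.7 and 6.74, beside Pol II that was higher after the knockdown, at 20.7 and 31.5. On chromosome 13 from 48641601 to 48641850 it was 25.2 and 6.97.

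The kept regions in which Med26 was higher after the knockdown were weak in the control. On chromosome 6 from 119429601 to 119429750 Med26 was 9.97 in the control and 14.6 after the knockdown. On chromosome 14 from 48092351 to 48092550 it was 7.60 and 11.01, and on chromosome 17 from 29169301 to 29169350 it was 6.83 and 9.62. On chromosome 5 from 115392251 to 115392350 it was 10.2 and 13.03, and on chromosome 8 from 13869651 to 13870250 it was 13.9 and 17.6. The largest of these differences was 0.55 on the log2 scale, and a kept region this close to the minimum had to stay above it to be kept at all.

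The lost regions with the highest signal were of 2 kinds. Cbx3 itself was mapped in untreated cells in 2 libraries, called set 1 and set 2 here. The 5 highest lost regions lay within 1 kb of Cbx3 set 1 regions whose signal was more than 10 times the set's median. Of these, 4 were on chromosome 17 from 39980251 to 39984800, with Med26 control signals of 144.7, 136.7, 124.6 and 44.6, and 1 was on chromosome 11 from 3093151 to 3093300, with 69.4. Between the first and the last of the 4 the Cbx3 siRNA library listed a single window, on chromosome 17 from 39981151 to 39981200, with a signal of 111.6 that counts as gained. Cdk8 and both Cbx3 sets were listed at all 4 of these regions, with Cdk8 at 251.4 and 313.02 in the control and Cbx3 siRNA arms at the first of them. At that first region Pol II was 157.6 and 162.0. On chromosome 11 Cdk8 was 76.2 in the control and not listed after the knockdown, and Pol II was listed after the knockdown alone, at 75.5. High values in these places were thus shared by Med26, Cdk8, Pol II and Cbx3 libraries, and the part of this in the 5 lost calls was not tested.

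Away from those stretches, the highest lost regions after the 2 strong ones were at 29.4 on chromosome 2 from 29918051 to 29918250, at 29.1 on chromosome 9 from 21564551 to 21564700 and at 28.6 on chromosome 17 from 15701551 to 15701750. Pol II stayed listed at the first (17.7 and 24.0) and the third (16.3 and 11.9), but not at the second, where it was 23.4 in the control. The lost regions with the most listed length were lower. The longest, on chromosome 15 from 96116851 to 96117750, had 900 bp listed at a highest signal of 15.1, with Pol II at 35.9 and 23.3. Others were on chromosome 2 from 167246851 to 167247700 (700 bp, signal 23.5, Pol II 27.6 and 21.5) and on chromosome 15 from 55388651 to 55389350 (700 bp, signal 20.7, Pol II 23.8 and 21.7). Pol II was listed in both arms at all 10 of the longest lost regions.

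Pol II lay at nearly all kept regions, at most lost regions and at a minority of gained regions. Control Pol II was listed at 96.7% of kept regions (interval 94.8 to 97.9%), 72.8% of lost regions (71.6 to 74.0%) and 30.6% of gained regions (28.1 to 33.2%). Pol II of untreated cells, a separate library, was listed in the same order, at 77.7, 43.2 and 14.9%. Med26 signal moved with these shares: regions near the minimum held control Pol II less often in the lost and gained classes, and Pol II of untreated cells less often in the kept class too (59.1% under 1.5 times the lowest value and 81.1% at 2 times or more). At 2 times the lowest value or more, the shares were 98.0% for kept, 95.4% for lost and 86.7% for the 15 gained regions. Under 1.5 times they were 95.5% for the 22 kept, 51.9% for lost and 25.8% for gained regions. Pol II of untreated cells at 2 times or more lay at 81.1% of kept (interval 76.9 to 84.6%) and 70.2% of lost regions (67.6 to 72.7%). Lost regions well above the minimum thus lay on control Pol II nearly as often as kept ones but on that of untreated cells less often, while gained regions near the minimum did so less often than lost regions of like signal.

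**Figure D4:**
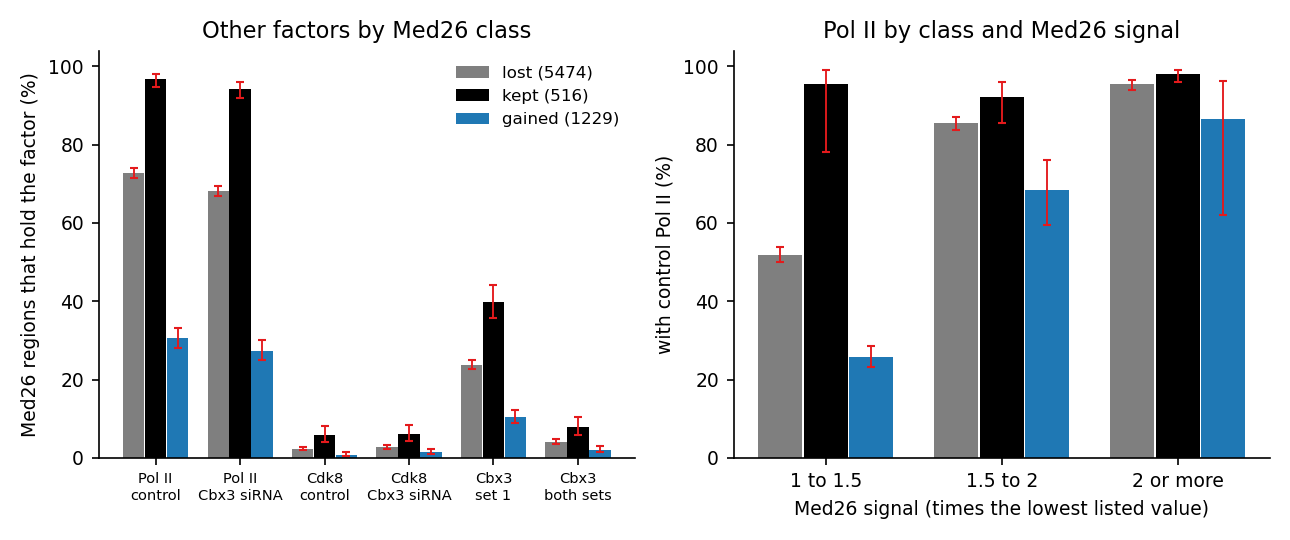
Left, share of lost, kept and gained Med26 regions that hold Pol II, Cdk8 or Cbx3 regions; right, share with control Pol II by Med26 signal in multiples of the lowest listed value; bars start at 0 and red lines are 95% Wilson intervals. Control Pol II was listed at 96.7% of kept, 72.8% of lost and 30.6% of gained regions.

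Most lost Med26 regions still held Pol II after the knockdown. Of the 5474 lost regions, 3507 (64.1%) held Pol II in both arms, 478 (8.73%) in the control alone, 222 (4.06%) after Cbx3 siRNA alone and 1267 (23.1%) in neither. Of the regions with control Pol II, it was not listed after the knockdown at 11.995% of lost regions (interval 11.02 to 13.04%), 4.41% of kept regions (2.93 to 6.58%) and 17.3% of gained regions (13.8 to 21.4%). Over all control Pol II regions, each counted whole, the share was 32.1%, and it fell with Pol II signal. Outside stretches of very high Cbx3 signal, 2691 of 2963 were not listed again under 1.5 times the lowest value. From 3 to 5 times it was 139 of 4247, and at 5 times or more 5 of 3758. Control Pol II at lost Med26 regions had a median signal of 30.9, so the 32.1% is not taken at like Pol II signal. Where Pol II was listed in both arms it had a median log2 difference of -0.32 at lost regions, -0.34 at kept regions and -0.33 at gained regions. At places with Pol II in both arms its median difference was thus nearly the same in the 3 classes, and differed little from the -0.29 of all kept Pol II regions. The -0.29 is not taken at like Pol II signal either. Outside stretches of very high Cbx3 signal, the median was -0.30 from 3 to 5 times the lowest value and -0.40 at 5 times or more.

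Med26 was more frequent and was kept more often at higher Pol II. Of 16073 control Pol II regions, 4098 held control Med26 (25.5%), and these had a median Pol II signal of 30.7 against 13.9 for those without. The share with Med26 was 0.181% in the lowest decile by Pol II signal and 62.7% in the highest. Of the Pol II regions with Med26, 5.56% had a kept Med26 region in the fifth decile, 10.1% in the seventh and 17.9% in the highest. These shares count Pol II regions and were not taken at like Med26 signal or width. The part of Med26 signal and width in this order was not tested. Gained Med26 lay at 374 control Pol II regions. In the highest decile it lay at 108 of the 1607 Pol II regions (6.72%).

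**Figure D5:**
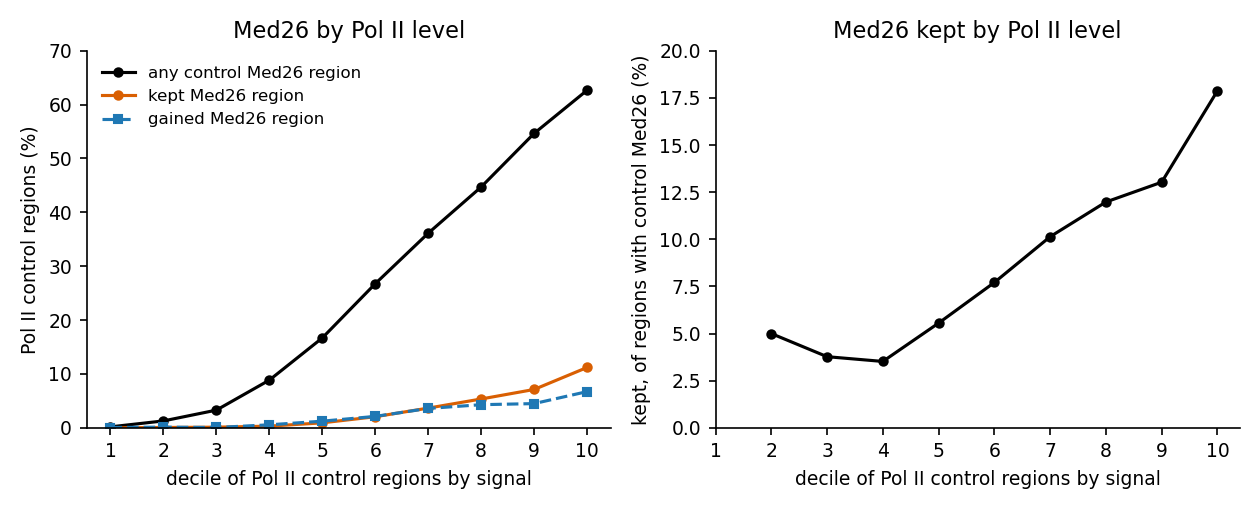
Left, share of control Pol II regions that hold any control, a kept or a gained Med26 region, by decile of Pol II signal (horizontal); right, of the Pol II regions with control Med26, the share with a kept one, for deciles with at least 20 such regions. Both are highest in the tenth decile, at 62.7% with Med26 and 17.9% of these with a kept region.

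Cdk8 was seldom listed on the same bases as Med26. Control Cdk8 lay at 5.81% of kept regions (30 of 516), 2.28% of lost regions (125 of 5474) and 0.814% of gained regions (10 of 1229). Control Cdk8 regions were narrow, 63.4% of them a single window, and within 1 kb the shares were higher, at 17.2, 13.1 and 6.27%. At 2 times the lowest Med26 value or more, control Cdk8 lay at 6.65% of kept regions (interval 4.58 to 9.56%), 4.86% of lost regions (3.80 to 6.19%) and 1 of 15 gained regions. These kept and lost intervals overlap, and the part of width in the order of the classes was not tested. Of the strong regions, 4 of 39 held control Cdk8. Cdk8 in both arms was found at 29 control Med26 regions outside stretches of very high Cbx3 signal, with a median log2 Cdk8 difference of -0.13 (quartiles -0.49 and 0.41), and it was higher at 12 and lower at 16 of them. Cdk8 therefore went in either direction at these places. Med26 was lost at 21 of them and kept at 8, so both subunits have a value in both arms at 8 places, and 91.4% of all control regions were lost.

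Cbx3, mapped in untreated cells, covered the classes in the same order as Pol II. Cbx3 regions of set 1 that overlap set 2 were found at 7.75% of kept regions (interval 5.74 to 10.4%), 4.13% of lost regions (3.63 to 4.69%) and 2.12% of gained regions (1.45 to 3.08%). With set 1 alone the shares were 39.9, 23.8 and 10.4%. At 2 times the lowest Med26 value or more, Cbx3 of set 1 lay at 43.5% of kept regions, 32.0% of lost regions and 7 of the 15 gained regions (46.7%, interval 24.8 to 69.9%), so this order did not hold for the few high gained regions. Kept regions were also wider, with a median span of 200 bp against 100 bp, and the part of width in this order was not tested. Of the strong regions, 17 held Cbx3 of set 1 and 6 Cbx3 of both sets.

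Gained regions fell into a group beside old Med26 regions and a larger group far from them. Within 1 kb of a control region lay 262 of the 1229 (21.3%), and 151 of these were within the 200 bp that would have merged them had both stood in 1 list. Of those, 77 directly adjoined a control region. In the group within 1 kb, 73.3% (interval 67.6 to 78.3%) held Pol II of the knockdown arm and 63.7% were single windows. Of the 965 farther away, 15.0% (interval 12.9 to 17.4%) held it and 80.0% were single windows, with a median signal of 7.33. In neither arm was Pol II listed at 827 gained regions (67.3%), and only 4.11% of these reached 1.5 times the lowest value, against 25.7% of the 311 with Pol II in both arms.

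The highest gained regions mostly stood at Pol II that was already there in the control. Leaving out 3 single windows within 1 kb of very high Cbx3 signal, on chromosomes 17 and 11 and on the mitochondrial chromosome, the highest was on chromosome 11 from 48613901 to 48614000, with Med26 at 15.1 and Pol II at 51.02 in the control and 37.1 after the knockdown. It directly adjoined a control Med26 region. The next lay on chromosome 8 from 74999351 to 74999450 (Med26 13.9, Pol II 45.6 and 38.9) and on chromosome 7 from 118226851 to 118226950 (Med26 13.4, Pol II 69.8 and 63.0), each within 51 bp of a control region. More isolated was one on chromosome 4 from 40216651 to 40216850, 9501 bp from the nearest control region, with Med26 at 13.4 over 4 windows and Pol II at 58.7 and 47.3. The gained region with the most listed length was on chromosome 1 from 173224751 to 173225050, with 300 bp, a signal of 11.6 and Pol II at 26.6 and 16.7. Of the 10 longest gained regions, 1, on chromosome 3 from 105962051 to 105962250, held no Pol II in either arm.

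Most control regions had no other within 1 kb. Of the lost regions, 95 (1.74%) lay within 1 kb of a kept one, and 376 (6.87%) within 1 kb of any region after Cbx3 siRNA. With control regions up to 1 kb apart joined, there were 5411 places, of which 9.85% overlapped a region after the knockdown. The share was 8.57% for the 4867 places made of 1 region and 21.3% for the 544 made of 2 or more, whose median signal was also higher (12.1 against 9.57).

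Along the genome the kept share differed between most chromosomes by less than the counting error. It was lowest on chromosome 13, at 11 of 243 (4.53%, interval 2.55 to 7.92%), and highest on chromosome 18, at 24 of 184 (13.0%, interval 8.92 to 18.7%), and the intervals of 2 of 20 chromosomes left out the overall 8.61%. On the X chromosome 3 of 44 control regions were kept (6.82%). The X chromosome stood apart in a different way: it held 11.1 Med26 regions for every 100 Pol II regions of the control, against 37.3 over all chromosomes and from 31.3 to 44.8 on the autosomes. The densest stretch of 1 Mb, on chromosome 7 from 52 to 53 Mb, held 25 control regions, of which 1 was kept, and the stretch on chromosome 11 from 70 to 71 Mb held 17, of which 4 were kept. Regions alone in their 1 Mb were kept in 6.34% of cases and those in stretches of 10 or more in 9.30%.

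Within 50 bp of the highest Pol II window lay the highest Med26 window of 45.1% of kept and 40.3% of lost regions with control Pol II, and of 38.9% of gained regions with Pol II of the knockdown arm. The median distance was 100 bp in each class, which is 2 windows.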

How the data were processed

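The deposited files list windows of 50 bp, and the signal in each window was computed by the authors. Bowtie, a read aligner, and the build mm9 appear in the submitters' processing notes. Not given in the sources used here are the aligner version, the window test, its threshold, the scaling and how inputs entered. Windows up to 200 bp apart were merged, and an overlap was at least 1 bp. Values were compared as deposited. Very high Cbx3 signal means over 10 times the median region of set 1, a limit chosen after seeing the data, like that of 5 times the lowest value. Nothing was tested between arms, with 1 library each. The 10 highest and longest lost and gained regions, the 10 highest kept regions and the 5 kept regions most different in each direction were the rule for naming. Members and lists were chosen with earlier results of these data known.

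Genes are not named and no sequence is given: the tables used here are of another build (GRCm38) and coordinates were not converted, so promoter shares and gene lists were not run. Merging, classes and log2 differences were tested on simulated data with 5000 regions, of which 1000 were kept and 1000 recovered. The scripts ran in Python 3.11.15 with pandas 2.3.3 and numpy 2.4.6, and plots were drawn with matplotlib 3.10.9. Alternatives covered overlap, merging, width, signal limits and the Cbx3 set.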

Additional observations from a re-analysis of the deposited data

Results flagged for a closer look

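At strong control regions the Mediator subunits had median log2 differences of opposite sign under the same contrast, each over its own regions (39 for Med26 and 193 for Cdk8, with control Cdk8 at 4 of the 39). This difference was not tested, since each arm has a single library. The median was -1.20 for Med26, with 37 of 37 kept regions lower, and 0.067 for Cdk8, with 82 of 192 kept regions lower. The Cdk8 quartiles, -0.21 and 0.30, lie on both sides of 0. At the 29 control Med26 regions with Cdk8 in both arms, the Cdk8 median was -0.13, not of opposite sign. Each factor was precipitated in separate libraries, so factor and library cannot be told apart.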

How the results depend on the processing

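No log2 difference changed sign, but the gained share went from a majority to a minority of regions under 2 alternatives, and the cause of the moves was not tested. Values below lay outside the 95% interval of the reported share or, for log2 differences, outside the order-statistic interval of the median over regions. The kept share (8.61%) was 14.9% with regions within 1 kb counted as overlap, 6.13% without merging, 9.55% with merging up to 500 bp, 12.6% for regions of 2 or more windows, 7.72% with both lists at or above the median control signal and 22.9% with equal numbers of regions. In the same order without the 500 bp merging, the gained share (70.4%) was 55.4, 65.0, 46.3, 23.7 and 77.1%. Listed windows after Cbx3 siRNA were 17.5% of control, and 7.78% at or above the median control window signal. The median log2 difference at kept regions (-0.68) was -0.52 for the mean and -1.64 for the sum over listed windows, and -0.96 above the median control signal. At strong regions (-1.20) it was -0.78 for the mean, -1.87 for the sum, -1.03 from 3 times the lowest value and -0.62 with regions picked by their Cbx3 siRNA signal; 49.8% and 71.2% were kept from 3 and 4 times. Of lost regions, 22.9% reached 2 times the lowest value, 3.11% reached 3 times and 71.7% the median window of the Cbx3 siRNA library. Within 1 kb, Pol II lay at 84.7, 99.4 and 40.5% and Cdk8 at 13.1, 17.2 and 6.27% of lost, kept and gained regions. Cbx3 set 1 alone covered 23.8, 39.9 and 10.4% of these, and set 2 alone 5.32% of lost and 11.4% of kept regions. Alternatives for strong regions and for very high Cbx3 signal were chosen after seeing the data. No paired analysis was possible because there was 1 Med26 library in each arm. Promoter windows were not run. The depth is unknown, and 64.4% of Cbx3 siRNA regions are single windows.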
